A study of Homo sapiens with 10 samples.

Results

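The miR-17-92 cluster was followed through small RNA sequencing libraries of ES-2 cells, an established human line derived from an ovarian cancer. The members were taken by name: hsa-miR-17-5p, hsa-miR-17-3p, hsa-miR-18a-5p, hsa-miR-19a-3p, hsa-miR-19b-3p, hsa-miR-20a-5p and hsa-miR-92a-3p (written without the species prefix from here on), 7 of the 2576 mature miRNAs in the table, with rows of the same name summed. The 10 libraries fell into 4 groups. Cells received an siRNA pool against IGF2BP1 (siIGF2BP1, 2 libraries), against IGF2BP2 (siIGF2BP2, 3 libraries), against IGF2BP3 (siIGF2BP3, 3 libraries) or control siRNA (siC, 2 libraries). All groups shared the parental line and the DMEM and serum culture, so that the results concern a single line, and siRNA dose and time were not given in the sources used here. IGF2BP1, IGF2BP2 and IGF2BP3 are paralogous RNA-binding proteins, and the study's title concerns IGF2BP1 and the downregulation of oncogenic factors by miRNAs. The table lists mature miRNAs, so the IGF2BP mRNAs and the depth of the knockdowns were not analysed here.

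The cluster is made as a single primary transcript from the MIR17HG locus, is known as a target of MYC and is amplified or overexpressed in several cancers. Drosha cuts the transcript into hairpins and Dicer cuts each hairpin into a duplex, of which 1 arm is usually kept by an Argonaute protein while the other is degraded. The bases after the first of a mature miRNA, its seed, select the mRNAs that it represses, so that members with the same seed share many predicted targets.

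On GRCh38.p14 the 6 hairpins span 787 bases of the plus strand at chr13:91350605-91351391, inside MIR17HG, and lie in an exon of 2 and an intron of 1 of its 3 GENCODE transcripts. The mature sequences, from RefSeq and found for all 7 members, are shown to make the sharing of seeds visible. They run 5′ to 3′, and the capitals mark the seed, bases 2 to 8.
miR-17-5p: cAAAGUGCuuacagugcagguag
miR-20a-5p: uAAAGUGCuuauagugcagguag
miR-18a-5p: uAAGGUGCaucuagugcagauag
miR-19a-3p: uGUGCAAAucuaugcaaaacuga
miR-19b-3p: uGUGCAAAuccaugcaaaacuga
miR-92a-3p: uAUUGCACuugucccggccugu
miR-17-3p: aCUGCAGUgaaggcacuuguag

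The 7 members thus carried 5 different seeds. Counting positions from 1 at the 5′ end, miR-20a-5p differs from miR-17-5p by C1U and C12U, and miR-19b-3p differs from miR-19a-3p by U11C alone. miR-19b-3p and miR-92a-3p are each encoded a second time, on chromosome X in the miR-106a-363 cluster, with the same mature sequence. Relatives outside the cluster come close: miR-106a-5p differs from miR-17-5p by C1A, miR-18b-5p from miR-18a-5p by A20U, and miR-92b-3p from miR-92a-3p by U10C, G21C and U22C. How mismatched or multiply placed reads were counted is not given in the sources used here, so values of such neighbours are uncertain where reads could be split between them.

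The hairpins at the ends of the cluster are shown because the balance of their arms is described further on. The capitals mark the mature arms, 5p before 3p.
MIR17: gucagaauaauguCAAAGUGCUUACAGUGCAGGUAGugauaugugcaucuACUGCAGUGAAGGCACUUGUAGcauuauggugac
MIR92A1: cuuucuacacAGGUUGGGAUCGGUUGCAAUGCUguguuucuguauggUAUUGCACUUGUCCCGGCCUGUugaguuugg

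Recovered library totals ranged from 462724 to 1269743 reads, and every member had reads in all 10 libraries. The source name in the labels differs between siIGF2BP2 and siIGF2BP3 on one side and siIGF2BP1 and siC on the other. siIGF2BP1 against siC and siIGF2BP2 against siIGF2BP3 are therefore comparisons within a source name. For siIGF2BP2 or siIGF2BP3 against siC, the siRNA and the source name cannot be told apart. A list of 16 miRNAs of the imprinted 14q32 cluster moved with the source name: it took 0.000574 to 0.00151% of reads in the siIGF2BP2 and siIGF2BP3 libraries, with 2 to 5 members detected, and 0.146 to 0.40% in the siIGF2BP1 and siC libraries, with 14 to 16 detected. The endothelial miR-126 pair took 0.000491 to 0.00182% in the siIGF2BP2 and siIGF2BP3 libraries and 0.00803 to 0.0163% in the siIGF2BP1 and siC libraries. A list of 8 blood cell miRNAs took 0.0440 to 0.163% in the siIGF2BP2 and siIGF2BP3 libraries, with 2 to 5 detected. It took 0.0439 to 0.122% in the siIGF2BP1 and siC libraries, with 6 to 7 detected. The epithelial miR-200 family list took at most 0.00121% of any library. The part of these differences in the results was not tested.

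miR-92a-3p, which targets integrin and other mRNAs and acts in endothelial cells, made up nearly all reads of the cluster. It averaged a normalised read count of 77256 over the 10 libraries, the rank of 3 among all miRNAs. miR-17-5p averaged 956 and miR-20a-5p averaged 875, ranks 58 and 60, and miR-19b-3p averaged 531, rank 77. miR-19a-3p averaged 146, miR-18a-5p averaged 120 and miR-17-3p averaged 109, at ranks 124, 134 and 143. The mean of miR-92a-3p was thus 80.8 times that of miR-17-5p and 706 times that of miR-17-3p, although a single transcript holds all 6 hairpins. These are read counts, which ligation and amplification shape differently for each sequence, and miR-92a-3p also sums reads of its chromosome X copy. In bulk RNA such as this, fewer cells that make a miRNA and less of it per cell cannot be told apart.

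Of the 6 steps between neighbours in this order, 3 held in every library. miR-92a-3p exceeded miR-17-5p by 60.4 to 96.2 times, miR-20a-5p exceeded miR-19b-3p by 1.10 to 2.41 times, and miR-19b-3p exceeded miR-19a-3p by 2.26 to 5.80 times, each in 10 of 10 libraries. miR-17-5p was above miR-20a-5p in 9 of 10 libraries, with ratios of 0.95 to 1.29. miR-19a-3p was above miR-18a-5p in 8 of 10 libraries, and miR-18a-5p was above miR-17-3p in 5 of 10.

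**Figure D1:**
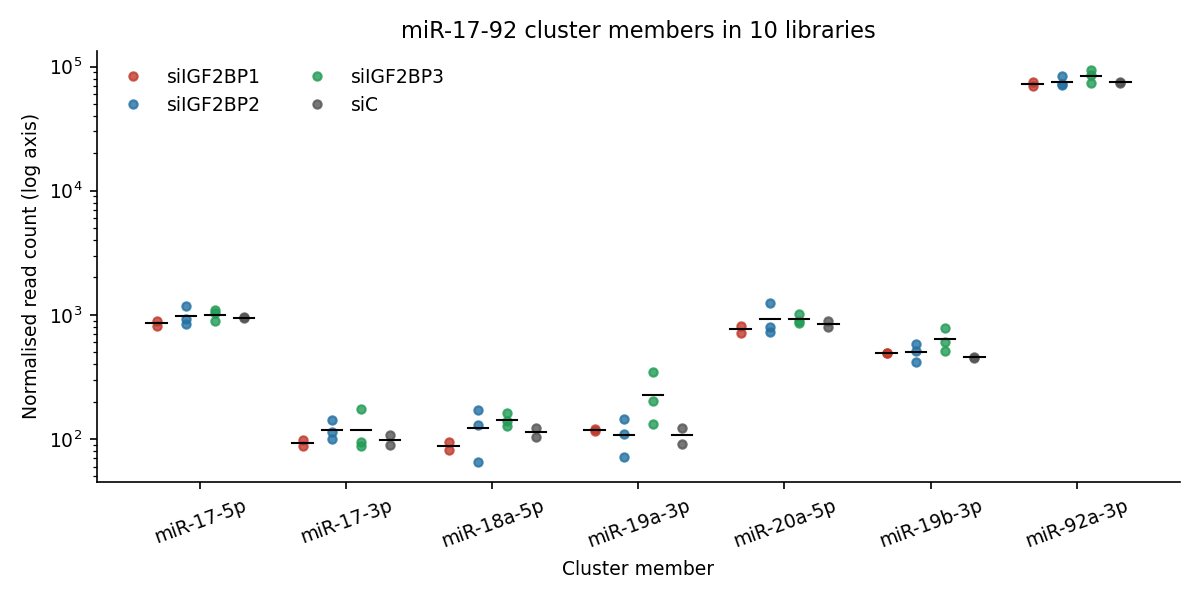
Normalised read count of each cluster member (log axis), with 1 point per library and a black line at each group mean, for siIGF2BP1, siIGF2BP2, siIGF2BP3 and siC. miR-92a-3p sat far above the other 6 members in all 10 libraries, and the widest spread was that of miR-19a-3p, with 131 to 347 in siIGF2BP3.

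As a share of all reads, the 7 members together took 7.13 and 7.96% in siIGF2BP1, 8.67, 7.93 and 7.86% in siIGF2BP2, 8.33, 9.95 and 9.69% in siIGF2BP3, and 8.55 and 7.77% in siC. The siIGF2BP3 mean of 9.32 ± 0.869% was the highest group mean, against 8.16 ± 0.553% in siC (SD, n = 3 and n = 2), and the groups overlapped. The difference of 1.16 percentage points gave p = 0.4 in a two-sided exact permutation test, in which 3 against 2 libraries cannot go below 0.2. For siIGF2BP1 against siC the difference was -0.614 (exact permutation p = 0.667, smallest possible 0.333), for siIGF2BP2 against siC it was -0.0095 (exact p = 0.8), and for siIGF2BP2 against siIGF2BP3 it was -1.17 (exact p = 0.2, smallest possible 0.1). None of the 12 such tests, on 3 measures in 4 comparisons, could have passed the threshold of 0.05, and the lowest adjusted p was 0.96.

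miR-92a-3p made up 95.5 to 97.3% of the cluster's normalised reads in the 10 libraries. Its share averaged 96.8 ± 0.262% in siIGF2BP1 (n = 2), 96.4 ± 0.885% in siIGF2BP2 (n = 3), 96.5 ± 0.549% in siIGF2BP3 (n = 3) and 96.7 ± 0.152% in siC (n = 2), with exact permutation p from 0.667 to 1 in the 4 comparisons, in tests that could not have passed 0.05. Among the other 6 members, miR-17-5p took the largest mean share in each group, from 33.1 ± 5.24% in siIGF2BP3 to 37.0 ± 1.54% in siC. As a percentage of the cluster's normalised reads, single libraries ranged from 0.0844 to 0.392% for miR-19a-3p and from 0.0761 to 0.230% for miR-18a-5p. The share of miR-19a-3p among the 6 was 7.33 ± 3.20% in siIGF2BP3, against 4.20 ± 0.982% in siC.

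Across all 889 miRNAs that passed the filter (2 or more libraries with a value of 1 or higher), limma with Benjamini-Hochberg adjustment at 0.05 called none of the 7 members in any comparison. In siIGF2BP1 against siC the count was 0 of 7, beside 2.47% of all miRNAs tested, and in siIGF2BP2 against siC it was 0 of 7, beside 9% of all. In siIGF2BP3 against siC it was 0 of 7, beside 10.6% of all, and in siIGF2BP2 against siIGF2BP3 it was 0 of 7, beside 3.15% of all. At an unadjusted p under 0.05 the counts in the same order of comparisons were 0, 0, 2 and 1 of 7, where 13.7%, 17.9%, 20.8% and 13.8% of all miRNAs had such a p. edgeR on the recovered reads of 335 miRNAs also called 0 members in each comparison, beside 12.5%, 15.5%, 19.1% and 11.9% of all. It gave 2, 0, 1 and 1 members an unadjusted p under 0.05, beside 27.8%, 25.1%, 31.9% and 24.5% of all. The 2 in siIGF2BP1 against siC were miR-17-5p (-0.41, edgeR adjusted p = 0.147) and miR-92a-3p (-0.30, adjusted p = 0.108). In the last 2 comparisons the member was miR-19a-3p. The calls depended on the scaling: after rescaling to the upper quartile, limma called 1 member, miR-92a-3p, in siIGF2BP2 against siC and 3 members, miR-19a-3p, miR-19b-3p and miR-92a-3p, in siIGF2BP3 against siC, all higher. That rescaling moved the median log2 fold change of all miRNAs by 0.26 and 0.27 in these comparisons.

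Groups that did not overlap were counted too. In siIGF2BP1 against siC, 1 member lay wholly higher and 2 lay wholly lower, beside 23.1% of all miRNAs wholly higher, 11.9% wholly lower and 35% in either direction. In siIGF2BP2 against siC there were 0 such members, beside 26.8% of all. In siIGF2BP3 against siC there were 3, all higher, beside 29.4% of all in either direction and 11.2% in that direction, and in siIGF2BP2 against siIGF2BP3 there were 0, beside 15.3%. The median log2 fold change of the 7 members was -0.07 in siIGF2BP1 against siC, where that of all tested miRNAs was 0.10. It was 0.04 in siIGF2BP2 against siC (-0.03 for all), 0.20 in siIGF2BP3 against siC (0 for all) and -0.15 in siIGF2BP2 against siIGF2BP3 (0 for all). The 3 comparisons with siC share its libraries. The labels do not say whether the replicates were separate cultures, so a p-value here measures the spread between libraries, which may be technical.

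**Figure D2:**
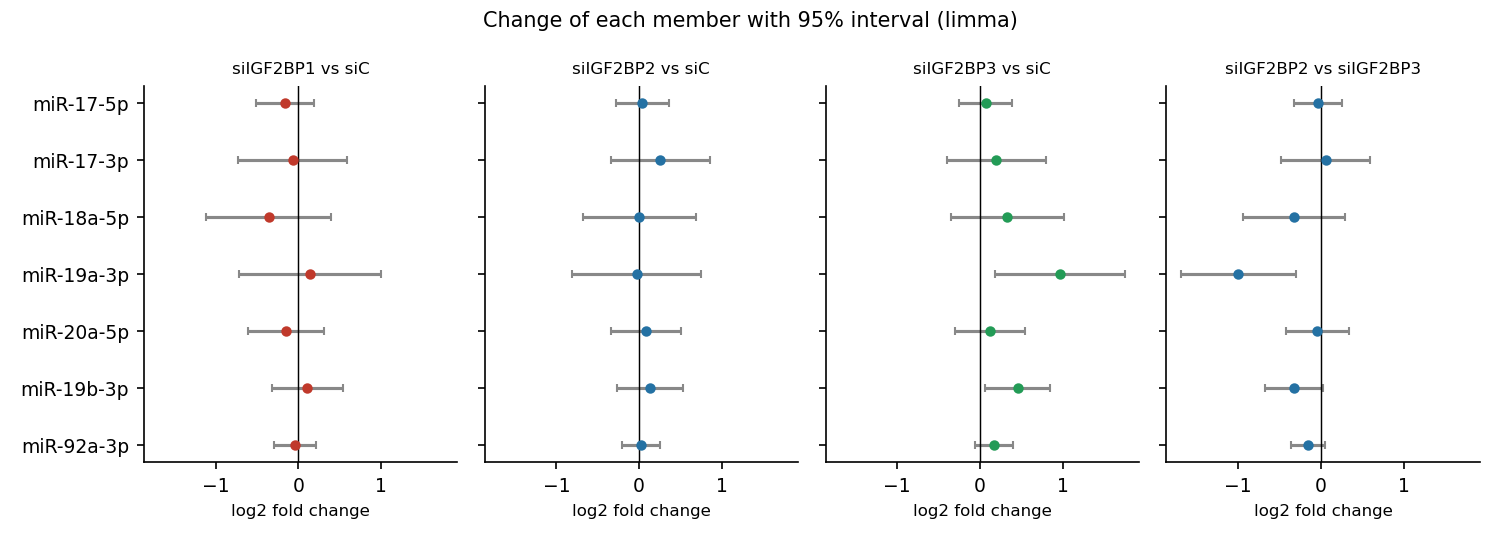
Log2 fold change of each member on the log2(value + 1) scale with its 95% interval from limma, in the 4 comparisons named above the panels. The intervals of miR-19a-3p (0.97 and -0.997) and of miR-19b-3p (0.46) leave 0 in the siIGF2BP3 panels, yet none of the 28 values passed the adjusted threshold.

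miR-17-5p and miR-20a-5p share the AAAGUGC seed, which is known to repress cell cycle inhibitors such as CDKN1A. The normalised read count of miR-17-5p was 889 and 817 in siIGF2BP1, 930, 848 and 1176 in siIGF2BP2, 1030, 1084 and 888 in siIGF2BP3, and 962 and 940 in siC. Both siIGF2BP1 libraries lay below both siC libraries, while the other knockdown groups overlapped siC. The log2 fold change was -0.16 in siIGF2BP1 against siC (95% interval -0.51 to 0.19, limma adjusted p = 0.776), and it was 0.04 and 0.07 in siIGF2BP2 and in siIGF2BP3 against siC, values that turned to -0.02 and -0.04 with TMM scaling.

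For miR-20a-5p the normalised read count was 813 and 717 in siIGF2BP1, 722, 800 and 1238 in siIGF2BP2, 1016, 890 and 865 in siIGF2BP3, and 798 and 897 in siC. Every knockdown group overlapped siC, and siIGF2BP2 replicate 3 stood highest. The log2 fold changes against siC were -0.15 (-0.61 to 0.32) in siIGF2BP1, 0.08 (-0.34 to 0.50) in siIGF2BP2 and, in siIGF2BP3, 0.12 (-0.30 to 0.55). The same library was also the highest of all for miR-17-5p, at 1176, and it was the only library in which miR-20a-5p exceeded miR-17-5p.

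miR-18a-5p, whose seed differs from theirs in a single base, had 81.1 and 95.2 normalised reads in siIGF2BP1, 65.1, 130 and 171 in siIGF2BP2, 162, 128 and 139 in siIGF2BP3, and 104 and 122 in siC. All siIGF2BP1 libraries were below siC and all siIGF2BP3 libraries were above it, while siIGF2BP2 spread over the whole range. Its log2 fold change was -0.36 (-1.11 to 0.40, limma adjusted p = 0.770) in siIGF2BP1 against siC and 0.33 (-0.36 to 1.02, adjusted p = 0.634) in siIGF2BP3 against siC. It was 0.00 (-0.68 to 0.69) in siIGF2BP2 against siC.

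miR-19a-3p and miR-19b-3p, known as the main oncogenic members of the cluster in mouse lymphoma, share the GUGCAAA seed with no other miRNA of the table for which a sequence was found. miR-19a-3p had 121 and 115 normalised reads in siIGF2BP1, 72.2, 145 and 109 in siIGF2BP2, 202, 131 and 347 in siIGF2BP3, and 124 and 91.8 in siC. All 3 siIGF2BP3 libraries lay above both siC libraries, with siIGF2BP3 replicate 3 far above the rest, and siIGF2BP3 overlapped siIGF2BP2. These values rest on 51 to 292 reads per library.

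The log2 fold change of miR-19a-3p was 0.97 in siIGF2BP3 against siC (95% interval 0.19 to 1.75, unadjusted p = 0.0191, limma adjusted p = 0.128). In siIGF2BP2 against siIGF2BP3, within a source name, it was -0.997 (-1.70 to -0.30, unadjusted p = 0.00891, adjusted p = 0.141), with the siIGF2BP2 mean at 109 ± 36.5 and the siIGF2BP3 mean at 227 ± 110 (SD, n = 3 each). Neither passed the threshold, and whether it passed depended on the setting. In siIGF2BP3 against siC, it passed with upper-quartile scaling (1.35, adjusted p = 0.0228) and without siIGF2BP3 replicate 2 (1.30, adjusted p = 0.0341), and over the 19 settings its adjusted p ran from 0.0228 to 0.516. In siIGF2BP2 against siIGF2BP3, it passed in 1 of 21 settings, a fit to the 6 libraries of these groups alone that was added after seeing the data (-0.997, adjusted p = 0.00436), and the highest adjusted p was 0.361. Without siIGF2BP3 replicate 3, the value was 0.61 in siIGF2BP3 against siC and -0.63 in siIGF2BP2 against siIGF2BP3. In the authors' deposited table its log2 fold change for siIGF2BP3 was 1.08 with a false discovery rate of 0.202.

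miR-19b-3p had 488 and 495 normalised reads in siIGF2BP1, 419, 579 and 513 in siIGF2BP2, 607, 512 and 785 in siIGF2BP3, and 450 and 460 in siC. The siIGF2BP1 and siIGF2BP3 libraries all lay above both siC libraries, and siIGF2BP3 replicate 3 was again the highest. The log2 fold change was 0.46 in siIGF2BP3 against siC (0.06 to 0.85, unadjusted p = 0.0274, limma adjusted p = 0.164), and it passed with upper-quartile scaling alone (0.84, adjusted p = 0.00913). In siIGF2BP1 against siC it was 0.11 (-0.32 to 0.54), which turned to -0.11 with upper-quartile scaling and -0.15 with edgeR.

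Within this seed pair, miR-19a-3p came closest to miR-19b-3p in siIGF2BP3 replicate 3. The ratio of miR-19b-3p to miR-19a-3p was 4.05 and 4.29 in siIGF2BP1, 5.80, 3.99 and 4.71 in siIGF2BP2, 3.01, 3.90 and 2.26 in siIGF2BP3, and 3.64 and 5.01 in siC. The siIGF2BP3 libraries were all below those of siIGF2BP2, a difference that was noticed in these values and was not tested. The summed level of the pair was 861 ± 249 in siIGF2BP3 (n = 3) and 563 ± 15.3 in siC (n = 2).

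miR-92a-3p had 70248 and 74593 normalised reads in siIGF2BP1, 83221, 72338 and 71033 in siIGF2BP2, 73819, 93136 and 85422 in siIGF2BP3, and 75517 and 73238 in siC. All knockdown groups overlapped siC. Its log2 fold changes against siC were -0.04 (-0.29 to 0.21) in siIGF2BP1, 0.02 (-0.21 to 0.25) in siIGF2BP2 and, in siIGF2BP3, 0.17 (-0.06 to 0.40), the narrowest intervals of the 7 members. Upper-quartile scaling gave 0.42 (limma adjusted p = 0.0278) in siIGF2BP2 and 0.55 (adjusted p = 0.00606) in siIGF2BP3, while TMM scaling gave -0.04 in siIGF2BP2. The siIGF2BP1 value depended on the setting too. It was -0.26 with upper-quartile scaling and -0.30 with edgeR (edgeR unadjusted p = 0.0176, adjusted p = 0.108). The median of all miRNAs that edgeR tested was -0.13 there.

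miR-17-3p is the other arm of the MIR17 hairpin and has a seed of its own, shared with no other miRNA of the table for which a sequence was found. It had 88.4 and 98.7 normalised reads in siIGF2BP1, 100, 141 and 114 in siIGF2BP2, 93.8, 87.6 and 174 in siIGF2BP3, and 89.1 and 108 in siC. All groups overlapped siC, and siIGF2BP3 replicate 3 stood highest, as it did for miR-19a-3p and miR-19b-3p. The log2 fold changes against siC were -0.07 (-0.73 to 0.59) in siIGF2BP1, 0.26 (-0.34 to 0.86) in siIGF2BP2 and, in siIGF2BP3, 0.20 (-0.40 to 0.80).

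The arms of the 6 hairpins were read very unequally, and how far this reflects their retention in the cells was not tested. The median ratio of the more to the less read arm over libraries was 2.62 for the miR-18a hairpin, 9.65 for miR-17, 19 for miR-19a, 203 for miR-19b, 217 for miR-20a and 449 for miR-92a, where the miR-19b and miR-92a values count main-arm reads of both genomic copies. The 5p arm was the more read for miR-17, miR-18a and miR-20a, and the 3p arm for both miR-19 hairpins and miR-92a. The less read arms of miR-20a and miR-19b held only 31 and 28 reads over all 10 libraries, so their ratios are loosely set.

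**Figure D3:**
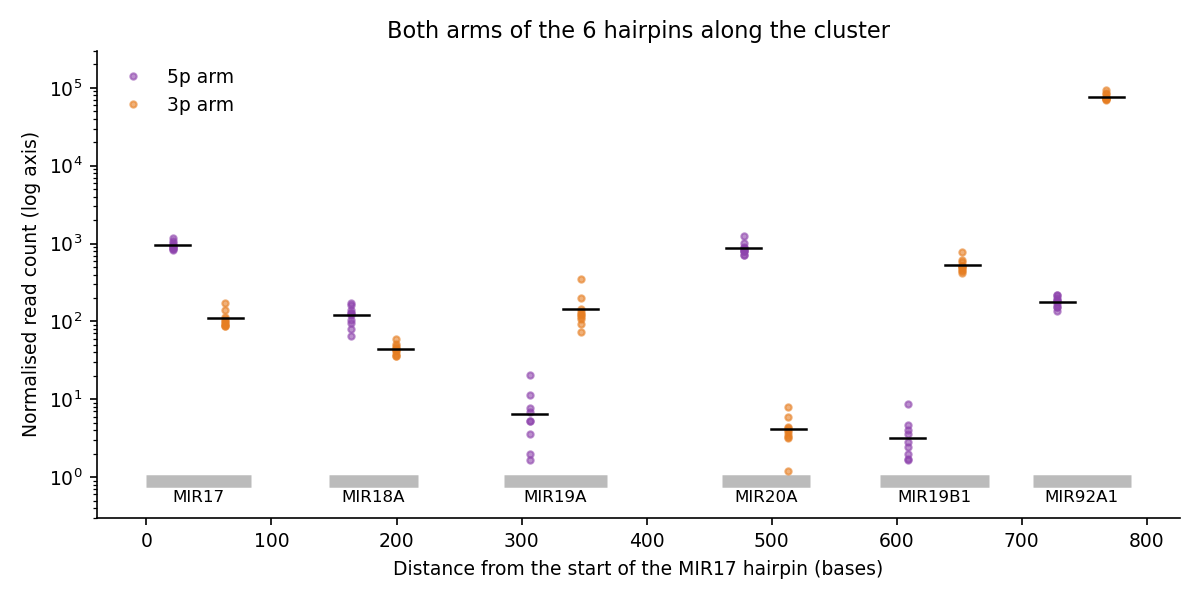
Normalised read count of the 5p and 3p arm of each hairpin (log axis) by distance from the start of the MIR17 hairpin in bases, with 1 point per library, a black line at the mean of 10 libraries and grey bars for the hairpins. miR-92a-3p at the far end had the highest level, and 1 library with 0 reads of miR-19a-5p and 1 with 0 reads of miR-19b-1-5p are not drawn.

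For miR-17, the read ratio of 5p to 3p was 10.1 and 8.28 in siIGF2BP1, 9.25, 6 and 10.3 in siIGF2BP2, 11.0, 12.4 and 5.12 in siIGF2BP3, and 10.8 and 8.72 in siC. The groups overlapped, and exact permutation tests of the log2 ratio gave p from 0.667 to 1 in the 4 comparisons. For miR-92a the ratio of 3p to 5p was 325 and 337 in siIGF2BP1, 436, 431 and 462 in siIGF2BP2, 402, 469 and 473 in siIGF2BP3, and 498 and 534 in siC. siIGF2BP1 was thus the lowest and siC the highest, without overlap. This difference was noticed in the values and was not tested.

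Its less read arm, miR-92a-1-5p, comes from chromosome 13 alone. It had 216 and 221 normalised reads in siIGF2BP1, 191, 168 and 154 in siIGF2BP2, 184, 199 and 181 in siIGF2BP3, and 152 and 137 in siC, so every knockdown library lay above both siC libraries. Of all miRNAs, 23.1%, 10.7% and 11.2% lay wholly higher in siIGF2BP1, siIGF2BP2 and siIGF2BP3 against siC. The same siC libraries serve each comparison, and for siIGF2BP2 and siIGF2BP3 the source name differs too. The log2 fold change of miR-92a-1-5p in siIGF2BP1 against siC was 0.60 (0.22 to 0.97, limma adjusted p = 0.0879), in siIGF2BP2 against siC 0.24 (adjusted p = 0.509) and in siIGF2BP3 against siC 0.38 (adjusted p = 0.183). edgeR gave lower values in the same order, 0.34, 0.18 and 0.27 (edgeR adjusted p = 0.181, 0.512 and 0.244). limma called 0 of the 5 other arms in each comparison, beside 2.47%, 9%, 10.6% and 3.15% of all miRNAs in the order used above. It gave 1, 0, 1 and 0 of the 5 an unadjusted p under 0.05. Of all miRNAs, 13.7%, 17.9%, 20.8% and 13.8% had such a p. edgeR tested 2 of the 5 other arms and called 0, with 0 at an unadjusted p under 0.05 in each comparison. Of all miRNAs that edgeR tested, it called 12.5%, 15.5%, 19.1% and 11.9%. An unadjusted p under 0.05 was given to 27.8%, 25.1%, 31.9% and 24.5% of them. miR-18a-3p averaged 44.2 normalised reads, and its log2 fold changes against siC were -0.01, -0.11 and 0.32 in siIGF2BP1, siIGF2BP2 and siIGF2BP3. miR-19a-5p averaged 6.38 and miR-20a-3p averaged 4.15 normalised reads, and the highest value of miR-19a-5p, 20.2, was that of siIGF2BP3 replicate 3, the library that was also highest for miR-19a-3p.

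The table holds 2 rows each for miR-19b-3p and miR-92a-3p but does not name the locus of either row. The first row held 52.1 to 53.2% of the miR-92a-3p reads (siIGF2BP3 replicate 1, the highest, had an exact 95% interval of 52.7 to 53.7%) and 42.6 to 54.6% of the miR-19b-3p reads. These intervals cover counting error only. The other miRNAs of the chromosome X cluster were nearly unread. Of its 10 mature miRNAs on the list, 4 passed the filter, miR-106a-5p averaged 4.20 normalised reads, miR-363-3p 3.00, miR-20b-5p 0.898 and miR-18b-5p 0.870, and the less read arms of its miR-19b and miR-92a hairpins had 0 reads. How the summed reads divide between the loci was not tested.

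From the chromosome X cluster, limma called miR-363-3p, which has the miR-92a seed, lower in siIGF2BP2 and in siIGF2BP3 against siC (adjusted p = 0.00282 and 0.00221). This was 1 of 4 tested in each, beside 9% and 10.6% of all miRNAs. miR-363-3p had 0 reads in all 6 siIGF2BP2 and siIGF2BP3 libraries, against 7 and 6 reads in siC, and 2 and 10 reads in siIGF2BP1. It therefore passed the filter only through siC and siIGF2BP1. The split follows the source name, which cannot be told apart from the siRNA here. Too few reads kept it out of the edgeR test, and no fold is given. Of the 4 tested, limma called 0 in siIGF2BP1 against siC and 0 in siIGF2BP2 against siIGF2BP3, beside 2.47% and 3.15% of all. An unadjusted p under 0.05 was found for 0 in either comparison, beside 13.7% and 13.8% of all. In siIGF2BP2 and in siIGF2BP3 against siC it was found for 2 and 1 of the 4, beside 17.9% and 20.8% of all. Beside miR-363-3p, this was miR-18b-5p in siIGF2BP2 against siC (limma unadjusted p = 0.0156, adjusted p = 0.126). miR-18b-5p had 0 reads in siIGF2BP2 and only 2 and 1 reads in siC.

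The miR-106b-25 cluster on chromosome 7, a paralogue inside the MCM7 gene, supplied most of the AAAGUGC seed. miR-17-5p and miR-20a-5p made up 29.1 to 40.3% of the normalised reads with that seed, and miR-93-5p was the main other miRNA, at 3025 and 3414 in siIGF2BP1, 3121, 2809 and 3410 in siIGF2BP2, 4359, 4588 and 3707 in siIGF2BP3, and 3206 and 3448 in siC. The cluster's own part averaged 32.3 ± 3.35% in siIGF2BP1, 36.5 ± 3.43% in siIGF2BP2, 30.3 ± 1.04% in siIGF2BP3 and 34.0 ± 0.623% in siC. Of the 6 miRNAs of miR-106b-25, limma called miR-25-5p higher in siIGF2BP1 against siC (log2 fold change 0.94, adjusted p = 0.0322) and miR-25-3p lower in siIGF2BP2 against siIGF2BP3 (-0.56, adjusted p = 0.0172). miR-106b-3p averaged 387 normalised reads in siIGF2BP1, 399 in siIGF2BP2, 486 in siIGF2BP3 and 345 in siC, with a log2 fold change of 0.49 in siIGF2BP3 against siC that missed the threshold (limma adjusted p = 0.0560). miR-106b-5p averaged 175, 159 and 202 in siIGF2BP1, siIGF2BP2 and siIGF2BP3, and 167 in siC. The 2 limma calls, 1 of 6 each, stood beside 2.47% and 3.15% of all miRNAs. In siIGF2BP2 and in siIGF2BP3 against siC, limma called 0 of the 6, beside 9% and 10.6% of all. An unadjusted p under 0.05 was found for 2, 0, 4 and 3 of the 6 in the order used above. The shares of all miRNAs with such a p were 13.7%, 17.9%, 20.8% and 13.8%. edgeR made the same calls and added miR-93-5p, lower in siIGF2BP2 against siIGF2BP3 (-0.39, adjusted p = 0.0432). Its calls were 1 of 6 in siIGF2BP1 against siC and 2 of 6 in siIGF2BP2 against siIGF2BP3. These stood beside 12.5% and 11.9% of all miRNAs that it tested. In siIGF2BP2 and in siIGF2BP3 against siC, edgeR called 0 of the 6, beside 15.5% and 19.1% of all. Over the 4 comparisons it gave 2, 1, 1 and 3 of the 6 an unadjusted p under 0.05. Of all miRNAs that edgeR tested, 27.8%, 25.1%, 31.9% and 24.5% had such a p. The median log2 fold change of the 6 was 0.17 in siIGF2BP1, -0.09 in siIGF2BP2 and 0.31 in siIGF2BP3 against siC, and -0.40 in siIGF2BP2 against siIGF2BP3, beside 0.10, -0.03, 0 and 0 for all tested miRNAs.

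For the AUUGCAC seed the cluster was the main source. miR-92a-3p made up 81.2 and 79.9% of the normalised reads with that seed in siIGF2BP1, 83.5, 84.2 and 83.7% in siIGF2BP2, 82.8, 84.1 and 85.0% in siIGF2BP3, and 84.3 and 84.7% in siC. Both siIGF2BP1 libraries were below all others. There miR-92b-3p stood at 10713 and 11864 and miR-25-3p at 5541 and 6938 in siIGF2BP1, against 9255 and 8268 and against 4836 and 4955 in siC. Neither passed the threshold (log2 fold changes 0.37 and 0.34, limma adjusted p = 0.181 and 0.273). edgeR gave 0.11 and 0.09 (edgeR adjusted p = 0.606 and 0.695). Of all miRNAs, 23.1% lay wholly higher in siIGF2BP1 against siC. The lower share of miR-92a-3p was noticed in these values and was not tested. Of the other relatives with the seed, miR-32-5p averaged 4.06 normalised reads in siIGF2BP1, 1.68 in siIGF2BP2, 2.64 in siIGF2BP3 and 5.14 in siC, and miR-367-3p had 0 reads in all libraries. Of these 3 relatives, miR-92b-3p included, 2 were tested and limma called 0 in each comparison, beside 2.47%, 9%, 10.6% and 3.15% of all miRNAs. It gave 1, 1, 0 and 0 of the 2 an unadjusted p under 0.05. The shares of all miRNAs with such a p were 13.7%, 17.9%, 20.8% and 13.8%. edgeR tested 1 of the 3 relatives and called 0, with 0 at an unadjusted p under 0.05 in each comparison. Of all miRNAs that edgeR tested, it called 12.5%, 15.5%, 19.1% and 11.9%. An unadjusted p under 0.05 was given to 27.8%, 25.1%, 31.9% and 24.5% of them.

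**Figure D4:**
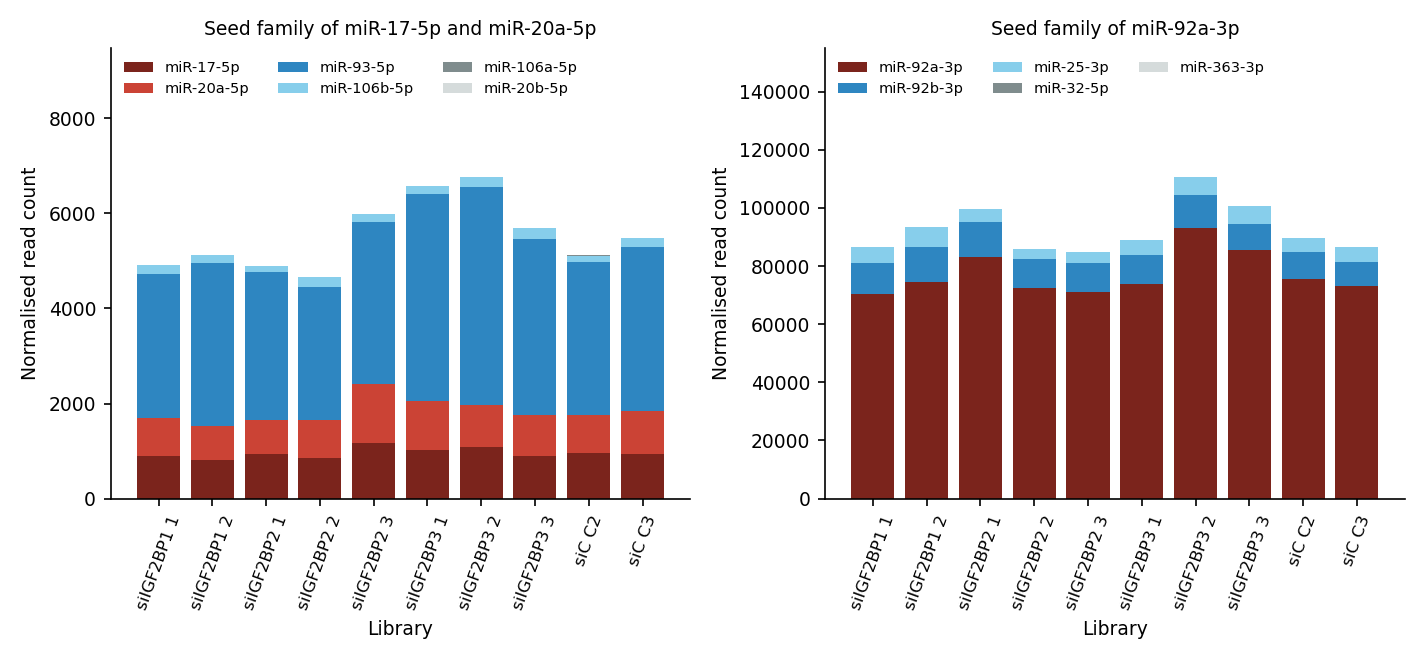
Stacked normalised read counts of the miRNAs that share a seed with miR-17-5p and miR-20a-5p, and of those that share a seed with miR-92a-3p, by library. The cluster's members, at the bottom in red tones, made up 29.1 to 40.3% of the first family and 79.9 to 85.0% of the second.

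Over the 10 libraries the members differed in spread. Reads per library ran from 36990 to 87444 for miR-92a-3p, but from 46 to 117 for miR-18a-5p and 51 to 292 for miR-19a-3p. The part of counting error in the spreads was not tested. The standard deviation of the log2 level was 0.13 for miR-92a-3p, 0.16 for miR-17-5p, 0.24 for miR-20a-5p, 0.26 for miR-19b-3p, 0.32 for miR-17-3p, 0.43 for miR-18a-5p and 0.62 for miR-19a-3p. The summed profile of the cluster is in effect that of miR-92a-3p, which made up 95.5 to 97.3% of the sum. A small root mean square difference between them was therefore fixed in advance. It was 0.01 on the log2 scale after centring, against 0.18 to 0.57 for the other 6. Among 142 other miRNAs with a mean value of at least 100, for which the median difference to the summed profile was 0.28, the most similar were miR-30d-5p (0.09), miR-1307-3p (0.12), miR-769-5p (0.12), miR-130b-3p (0.12) and miR-320a (0.13). For the same reason this is a likeness to miR-92a-3p and says little of the other members.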

How the data were processed

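The authors deposited a table of mature miRNAs with 10 library columns of normalised signal. The build hg19 and the tools cutadapt (1.6), featureCounts (1.4.6), Bowtie2 (2.2.4) and edgeR (3.12) are listed, without settings, per the submitters' processing notes. The scaling method and the counting settings were not given in the sources used here. Per the file headers, the authors also deposited log2 fold changes (knockdown over siC by their sign in 100% of 550 rows), p-values and false discovery rates. There were 0 unused columns of sample values.

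Each column was divided by its smallest value above 0, the value of 1 read (0.803 to 2.00). This gave whole reads for 100% of values within 0.01. The names of the control columns match no single control title, so they go by siC C2 and siC C3 and have no replicate number.

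The 2794 rows were summed by name, 218 of them marked as further genomic copies. The main test was limma 3.58.1 (R 4.3.3) with an intensity trend on log2(value + 1), 4 groups in 1 fit, since the unit was not a count, with Benjamini-Hochberg adjustment over 889 miRNAs. Fold changes on this scale understate changes of low miRNAs. edgeR 4.0.16 with TMM factors, on the recovered reads of 335 miRNAs, called 42 in siIGF2BP1 against siC, 52 in siIGF2BP2 against siC, 64 in siIGF2BP3 against siC and 40 in siIGF2BP2 against siIGF2BP3. Single measures were tested with scipy 1.17.1. The fits were tested on simulated data.

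All 7 members are named in each comparison, and of each list of relatives the called miRNAs, up to 4 of the most read, and the 5 most similar profiles. Members and lists were chosen with earlier results of these data known. Other alternatives were scaling (TMM, library total, upper quartile), pseudocounts of 0.1 and 5, no filter, separate copies, each library left out, and a replicate block. Sequences and coordinates are RefSeq's on GRCh38.p14, not the authors' build, and gene structure is from GENCODE.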

Additional observations from a re-analysis of the deposited data

How the results depend on the processing

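Each member had 19 settings in a comparison with siC and 21 in siIGF2BP2 against siIGF2BP3. Beside the values as reported, 22, 80, 94 and 28 miRNAs called in siIGF2BP1, siIGF2BP2 and siIGF2BP3 against siC and in siIGF2BP2 against siIGF2BP3, edgeR called 42 in siIGF2BP1 and 52 in siIGF2BP2 against siC, and upper-quartile scaling called 145 in siIGF2BP2 and 160 in siIGF2BP3 against siC. Leaving out single libraries gave 2 to 25, 53 to 91, 70 to 105 and 14 to 22 calls. The count fell to 3 without siC C2, 8 without siIGF2BP1 replicate 1 and 2 without siIGF2BP1 replicate 2 in siIGF2BP1 against siC, and to 53 without siIGF2BP2 replicate 2 or 3 in siIGF2BP2 against siC. In siIGF2BP2 against siIGF2BP3 it fell to 15, 14 and 15 without siIGF2BP2 replicate 1, 2 and 3, and to 16 without siIGF2BP3 replicate 2. Where a group was left with 1 library, that library was assumed to vary like the others.

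Members called numbered 1 in siIGF2BP2 and 3 in siIGF2BP3 against siC with upper-quartile scaling, 1 in siIGF2BP2 against siIGF2BP3 with those 6 libraries alone, an alternative added after seeing the data, and 0 to 1 in siIGF2BP3 against siC over the omissions. They were 0 in the other settings. The cause was not tested. Medians of all miRNAs moved by -0.11, 0.26 and 0.27 under upper-quartile scaling in the comparisons with siC and by -0.22 with edgeR in siIGF2BP1 against siC, where all 7 members were then below 0.

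Directions turned for small log2 fold changes. In siIGF2BP1 against siC, miR-19a-3p gave -0.078 (upper quartile) and -0.12 (edgeR), and miR-19b-3p gave -0.11 (upper quartile), -0.15 (edgeR) and -0.023 (separate copies). In siIGF2BP2 against siC, miR-17-5p gave -0.019 (TMM) and -0.011 (edgeR), miR-18a-5p -0.051 (TMM) and -0.019 (library total), miR-19a-3p 0.37 (upper quartile), miR-19b-3p -0.053 (separate copies), and miR-92a-3p -0.036 (TMM), -0.0048 (library total) and -0.041 (edgeR). In siIGF2BP3 against siC, miR-17-5p gave -0.039 (TMM) and -0.036 (edgeR). In siIGF2BP2 against siIGF2BP3, miR-17-5p gave 0.021 (TMM) and 0.025 (edgeR), and miR-20a-5p 0.010 (TMM) and 0.044 (edgeR). The cluster share without miR-92a-3p differed by 0.015 percentage points in siIGF2BP2 against siC, against -0.0095 with it.

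Over omissions of single libraries the log2 fold changes ranged as follows. In siIGF2BP1 against siC they were -0.22 to -0.10 for miR-17-5p, -0.20 to 0.068 for miR-17-3p, -0.47 to -0.24 for miR-18a-5p, -0.068 to 0.36 for miR-19a-3p, 0.10 to 0.13 for miR-19b-3p, -0.24 to -0.058 for miR-20a-5p and -0.082 to 0.0044 for miR-92a-3p. In siIGF2BP2 against siC they were -0.10 to 0.14 for miR-17-5p, 0.12 to 0.39 for miR-17-3p, -0.29 to 0.40 for miR-18a-5p, -0.26 to 0.24 for miR-19a-3p, 0.025 to 0.26 for miR-19b-3p, -0.16 to 0.23 for miR-20a-5p and -0.053 to 0.061 for miR-92a-3p. In siIGF2BP3 against siC they were 0.009 to 0.15 for miR-17-5p, -0.11 to 0.38 for miR-17-3p, 0.21 to 0.45 for miR-18a-5p, 0.61 to 1.30 for miR-19a-3p, 0.29 to 0.60 for miR-19b-3p, 0.038 to 0.21 for miR-20a-5p and 0.095 to 0.26 for miR-92a-3p. In siIGF2BP2 against siIGF2BP3 they were -0.17 to 0.068 for miR-17-5p, -0.12 to 0.37 for miR-17-3p, -0.62 to 0.067 for miR-18a-5p, -1.33 to -0.63 for miR-19a-3p, -0.47 to -0.16 for miR-19b-3p, -0.28 to 0.11 for miR-20a-5p and -0.24 to -0.076 for miR-92a-3p. The cluster share of reads differed by -1.03 to -0.198 percentage points in siIGF2BP1 against siC, -0.401 to 0.381 in siIGF2BP2 against siC, 0.771 to 1.66 in siIGF2BP3 against siC and -1.67 to -0.858 in siIGF2BP2 against siIGF2BP3. The share of miR-92a-3p in the cluster differed by -0.0647 to 0.305 percentage points in siIGF2BP1 against siC, -0.65 to 0.234 in siIGF2BP2 against siC, -0.48 to 0.0652 in siIGF2BP3 against siC and -0.461 to 0.423 in siIGF2BP2 against siIGF2BP3. The log2 arm ratio of miR-17 differed by -0.24 to 0.066 in siIGF2BP1 against siC, -0.38 to 0.010 in siIGF2BP2 against siC, -0.37 to 0.27 in siIGF2BP3 against siC and -0.49 to 0.15 in siIGF2BP2 against siIGF2BP3.

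With the replicate block, in siIGF2BP2 against siIGF2BP3, 20 miRNAs and 0 members were called, and miR-19a-3p had an adjusted p of 0.0864. Deviations of same-numbered libraries correlated at -0.10, -0.20 and -0.03 over 284 miRNAs, and 0 of 6 libraries correlated best with their own number. The deviations were centred within each group, which ties these correlations to one another. They cannot show whether same-numbered libraries were prepared together. No paired fit was made with siC, whose columns carry no number. With 46 to 117 reads per library for miR-18a-5p and 47 to 146 for miR-17-3p, depth limits what these members can show.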
